A study of Mus musculus with 66 samples.

Results

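Imprinted genes are expressed mainly from the chromosome inherited from one parent, and these are the mouse imprinted genes outside the Grb10 locus. The members were chosen by symbol, as 44 named imprinted genes with a row in a table of 24410 gene symbols, and all 44 were found. They lie in 20 loci on 11 chromosomes. Polyadenylated RNA was sequenced from mouse embryonic stem cells that had been turned into ventral progenitors of the spinal cord, in 37 WT and 29 MUT libraries. The cells received bFGF at 10 ng/ml, then the GSK3 inhibitor CHIR99021 at 5 µM on day 2, on day 3 a mix of 100 nM retinoic acid and 10 nM SAG, which activates Smoothened, and SAG alone from day 5. They were fixed in 3% glyoxal, stained and sorted, 10000 to 15000 cells per population, on days 5, 7, 9 and 11 (D5 to D11).

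The sorted domains are p1 (p0-p1 in the series description) and p2, which give rise to ventral interneurons, and pM, which gives rise to motor neurons. Cells were also gated on NFIA, which is a transcription factor that rises when progenitors turn to making glia, and NFIAp cells lay above the gate and NFIAn cells below it. WT cells were NFIAn in all domains at D5, D7 and D9, NFIAp in p2 and pM at D9, and NFIAp in all domains at D11. MUT cells were NFIAn at every day, so genotype and gate cannot be told apart at D11, and time and gate cannot be told apart between WT D5 and WT D11. Neither the gene mutated in MUT, nor the parent line, nor the number of clones is given in the labels. The 66 libraries form 26 groups, of which 15 hold 3 libraries, 10 hold 2 and 1 (MUT D9 p2) holds 1. Whether equal replicate numbers on 1 day mark 1 culture is not stated, and each p-value therefore reflects library-to-library spread, which may be technical.

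In genomic imprinting, methylation marks set in the egg or sperm are kept on the allele of that parent through the divisions of the embryo. The marked regions control clusters of neighbouring genes, often with a long noncoding RNA expressed from the opposite allele to the protein-coding genes. Many imprinted genes act on growth and on the exit from the cell cycle, and several are abundant in the developing nervous system. ZFP57 is a zinc finger protein that binds the methylated sequence TGCCGC and protects imprints. The counts used here add both parental alleles, so they measure expression level and not imprinting.

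One library, MUT D5 p2 replicate 2, had 8.74 M recovered reads, and the remaining libraries had 20.29 to 30.83 M. The summed normalised counts of 18 libraries (D7 replicate 3, D9 replicates 2 and 3) reached 26.59 to 40.23 M, and those of the remaining 48 lay between 17.85 and 25.5 M. The sorted domains carried their markers. Olig2, which defines pM, averaged 1702 normalised counts in WT D5 pM against 61.4 in p2 and 17 in p1, and Dbx1 averaged 5692 in WT D5 p1 against 804 in p2 and 188 in pM. Blood markers summed to at most 89, and both the endothelial list (at most 219) and the pluripotency list (at most 692) were low.

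Promoter windows from RefSeq (GRCm38.p6) were found for 37 of the 44 members. Cdkn1c, H19, Rtl1, Peg10, Sgce, Impact and Peg13 were not matched. In the 250 bases before the start, TGCCGC on either strand occurred in 8 members (21.6%) and in 9.8% of 27025 genes. Member promoters held a median of 12 CpG against 6 over all genes, and among the 9705 genes with at least 12 CpG the motif occurred in 21.2%. The share among members was thus close to that of CpG-rich promoters in general. No member window held the NFI palindrome, in which TTGGC is followed after 5 bases by its own complement GCCAA, and 12 of the 27025 genes did (0.044%).

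The windows of 5 members that carry much of what follows are printed because the results below turn on these genes and the windows differ in this motif. Each is the 250 bases before a RefSeq start, 5′ to 3′ on the strand of the gene, with TGCCGC or its complement GCGGCA in capitals.
Nnat (chr2:157559828-157560077, plus strand): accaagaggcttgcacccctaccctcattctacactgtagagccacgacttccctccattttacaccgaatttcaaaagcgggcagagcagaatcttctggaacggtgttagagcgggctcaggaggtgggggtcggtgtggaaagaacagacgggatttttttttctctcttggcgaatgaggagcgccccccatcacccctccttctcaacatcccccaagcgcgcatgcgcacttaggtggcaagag
Nap1l5 (chr6:58907127-58907376, minus strand): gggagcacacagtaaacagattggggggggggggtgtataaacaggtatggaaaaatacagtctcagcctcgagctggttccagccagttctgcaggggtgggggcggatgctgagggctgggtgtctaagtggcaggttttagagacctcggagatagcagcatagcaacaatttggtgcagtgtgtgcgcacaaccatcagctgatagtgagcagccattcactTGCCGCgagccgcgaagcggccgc
Mest (chr6:30737800-30738049, plus strand): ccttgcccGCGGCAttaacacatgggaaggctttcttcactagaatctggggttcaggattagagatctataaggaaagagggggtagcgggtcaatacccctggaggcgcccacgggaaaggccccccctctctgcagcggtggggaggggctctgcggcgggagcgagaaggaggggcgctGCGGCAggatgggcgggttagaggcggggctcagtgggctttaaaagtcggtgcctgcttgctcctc
Plagl1 (chr10:13090582-13090831, plus strand): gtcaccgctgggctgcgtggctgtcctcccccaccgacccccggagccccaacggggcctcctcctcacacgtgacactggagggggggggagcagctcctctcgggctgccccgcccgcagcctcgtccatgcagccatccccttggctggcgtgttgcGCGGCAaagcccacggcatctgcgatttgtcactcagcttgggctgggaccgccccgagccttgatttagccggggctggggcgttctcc
Meg3 (chr12:109540746-109540995, plus strand): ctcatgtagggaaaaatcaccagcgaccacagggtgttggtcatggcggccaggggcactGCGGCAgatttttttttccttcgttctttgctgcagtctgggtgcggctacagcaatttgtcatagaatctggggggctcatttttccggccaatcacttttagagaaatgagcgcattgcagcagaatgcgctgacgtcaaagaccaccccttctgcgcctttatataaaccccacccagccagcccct
In the windows printed, the motif was found 2 times before Mest, once each before Nap1l5, Plagl1 and Meg3, and not before Nnat. Mest had 3 windows and Meg3 had 2, and for both a window that holds the motif was chosen. Its presence in those 2 printed windows therefore follows from the choice. The 5 genes were chosen as well, so the windows printed do not give the share among members, which was 8 of 37. H13, Rian, Dlk1 and Slc38a4, also described below, had windows without the motif that are not printed. A match of these letters is a description of the window only.

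Across all 66 libraries the median was at least 1000 normalised counts in 15 members, 100 to 1000 in 15, 10 to 100 in 6 and below 10 in 8. Per kilobase of exon, the highest median levels were those of Nnat (21959 normalised counts per kb), Mest (4354), Snrpn (3898), Ndn (2766) and Peg12 (982). Slc22a18, Calcr and Rasgrf1 never reached 10 normalised counts and were not tested, which left 41 members. Together the members took 0.292% to 1.38% of a library. Nnat alone took a median of 0.0356% in WT at D5 and 0.371% in WT at D11, with a highest share of 1.07% in a MUT D11 library.

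From D5 to D11 members were called in both directions in both genotypes. In WT, 15 members rose and 8 fell, of 41 tested, where 25.1% of all genes tested rose and 22.8% fell. In MUT, 15 members rose and 8 fell, where 24.1% of all genes rose and 22% fell. In both directions together, 48% of all genes were called in WT and 46% in MUT, so the share of members called (56.1% in each) stood near that of the transcriptome. The same 13 members rose and the same 6 fell in both genotypes, 4 were called in WT alone and 4 in MUT alone, and none was called in opposite directions. The 18 members not called in WT ranged from -1.1 to 1.24 on the log2 scale. The median member difference in WT was 0.31 on the log2 scale against 0.04 over all genes, and the median absolute difference was 0.84 against 0.71. Among members known to be expressed from the paternal allele, 10 of 25 rose and 6 fell in WT, and among those expressed from the maternal allele 5 of 15 rose and 2 fell.

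**Figure D1:**
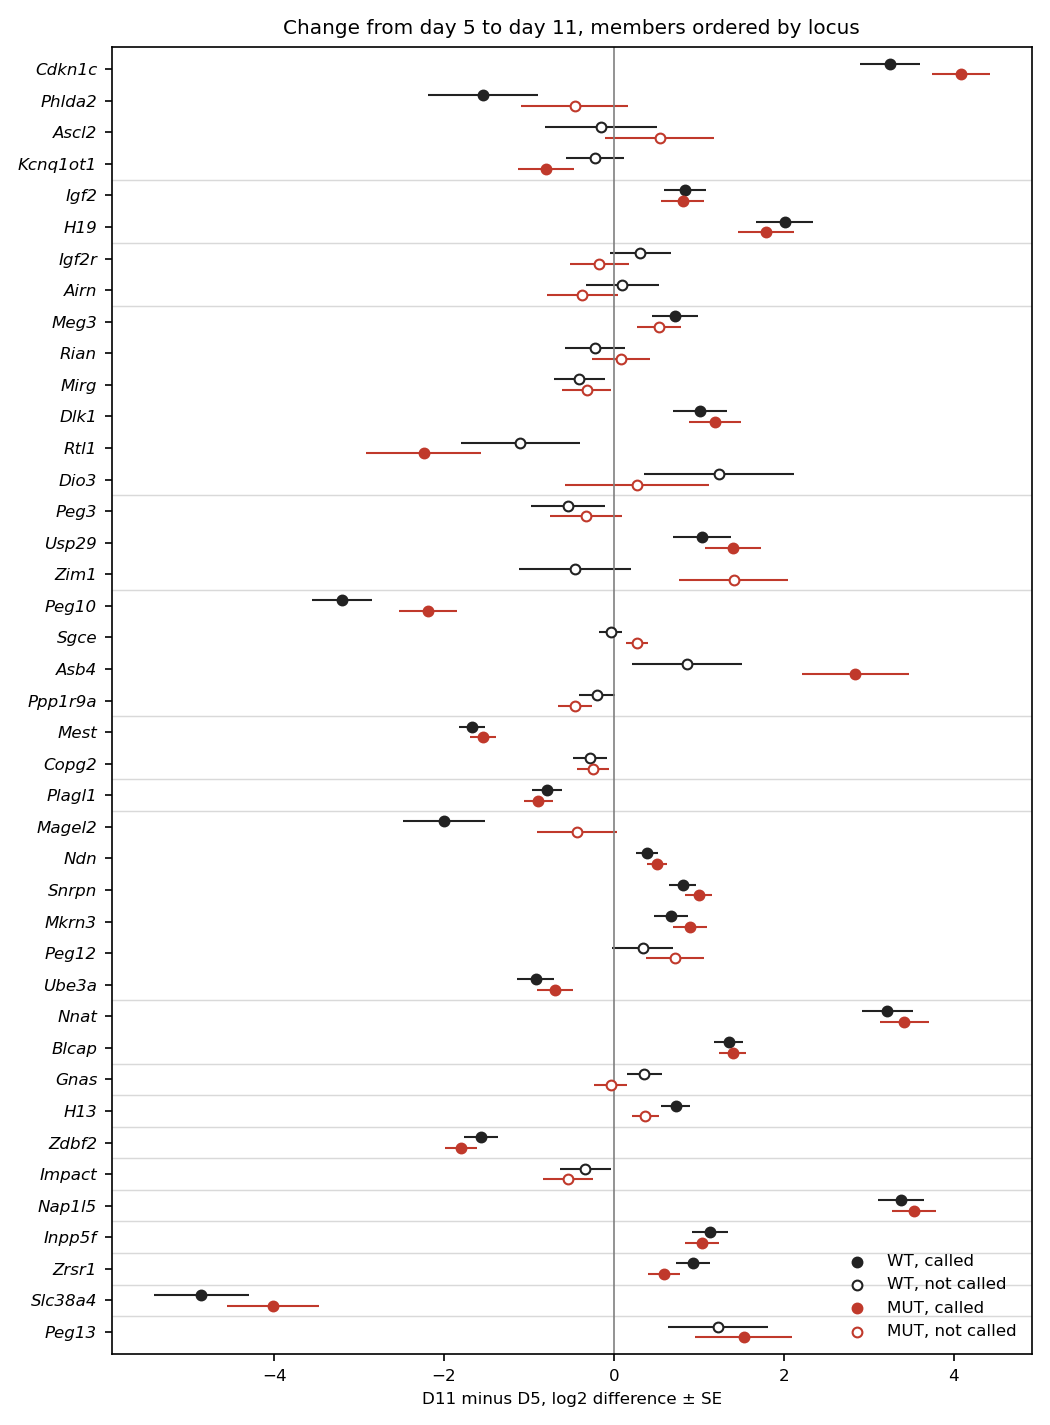
Change from D5 to D11 on the log2 scale (x axis, ± SE of the fit) for the 41 members tested, in WT (black) and MUT (red), ordered by locus with lines between loci; filled points passed the test. Slc38a4 and Peg10 lie far to the left and Nap1l5, Nnat and Cdkn1c far to the right in both genotypes.

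Nnat (chr2:157560078-157562522), which encodes neuronatin, a small membrane protein of developing neural tissue, lies inside the Blcap gene and was the most abundant member. Over the 8 WT D5 libraries its lowest, median and highest normalised counts were 4735, 7671 and 15195. Over the 9 WT D7 libraries they were 12918, 25987 and 81877, and over the 6 WT D11 libraries 29807, 82965 and 172962. Every D11 library was above every D5 library. Nnat rose by 3.22 ± 0.30 in WT (adjusted p = 1.5e-12) and by 3.42 ± 0.29 in MUT (adjusted p = 9.1e-14), with values of 3.06, 3.29 and 3.32 in WT p1, p2 and pM. The pM libraries were above those of p2 without overlap on 3 of 4 days in WT, D7 being the exception, and the difference of pM from p2 averaged over the 4 days was 0.91 ± 0.25 (adjusted p = 0.037). That domain call ended when any of 12 of the 20 libraries was left out, with adjusted p up to 0.13 without WT D9 pM NFIAn replicate 3.

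Blcap (chr2:157556362-157571274), the host gene on the opposite strand, rose less than Nnat, by 1.35 ± 0.17 in WT and 1.40 ± 0.16 in MUT (adjusted p = 3.9e-09 and 8.2e-10). Its 8 WT D5 libraries held 721 to 1157 normalised counts and its 6 WT D11 libraries 1769 to 3299, with no overlap.

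Nap1l5 (chr6:58905233-58907076), an intronless gene of the nucleosome assembly protein family inside an intron of Herc3, showed the largest rise of any member in WT. WT D5 libraries had a lowest, median and highest of 73.7, 109 and 211 normalised counts. WT D11 p1 libraries held 704 and 483, p2 libraries 1560 and 2052, and pM libraries 2229 and 2246. All were above the D5 libraries, and p1 stayed below p2 and pM. The rise was 3.38 ± 0.27 in WT (adjusted p = 1.1e-14) and 3.53 ± 0.26 in MUT (adjusted p = 1e-15). Between NFIAp cells of D9 and D11 in p2 and pM, Nap1l5 rose by a further 1.98 ± 0.32 (adjusted p = 2.3e-05), and libraries of those days did not overlap in either domain.

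Other single-gene loci also rose. Inpp5f, a phosphoinositide phosphatase, rose by 1.13 ± 0.21 in WT and 1.04 ± 0.20 in MUT. Zrsr1, a retrogene related to splicing factors, rose by 0.93 ± 0.20 in WT and 0.59 ± 0.19 in MUT. It lies in an intron of Commd1 and shares 9.17% of its exon bases with that gene on the opposite strand, so these counts are uncertain where strand was not used. Peg13, a noncoding RNA, was called in MUT alone (1.53 ± 0.57, adjusted p = 0.024). That call ended without any of 4 of 15 libraries, and without MUT D11 pM replicate 3 the difference was 0.98 (adjusted p = 0.18).

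**Figure D2:**
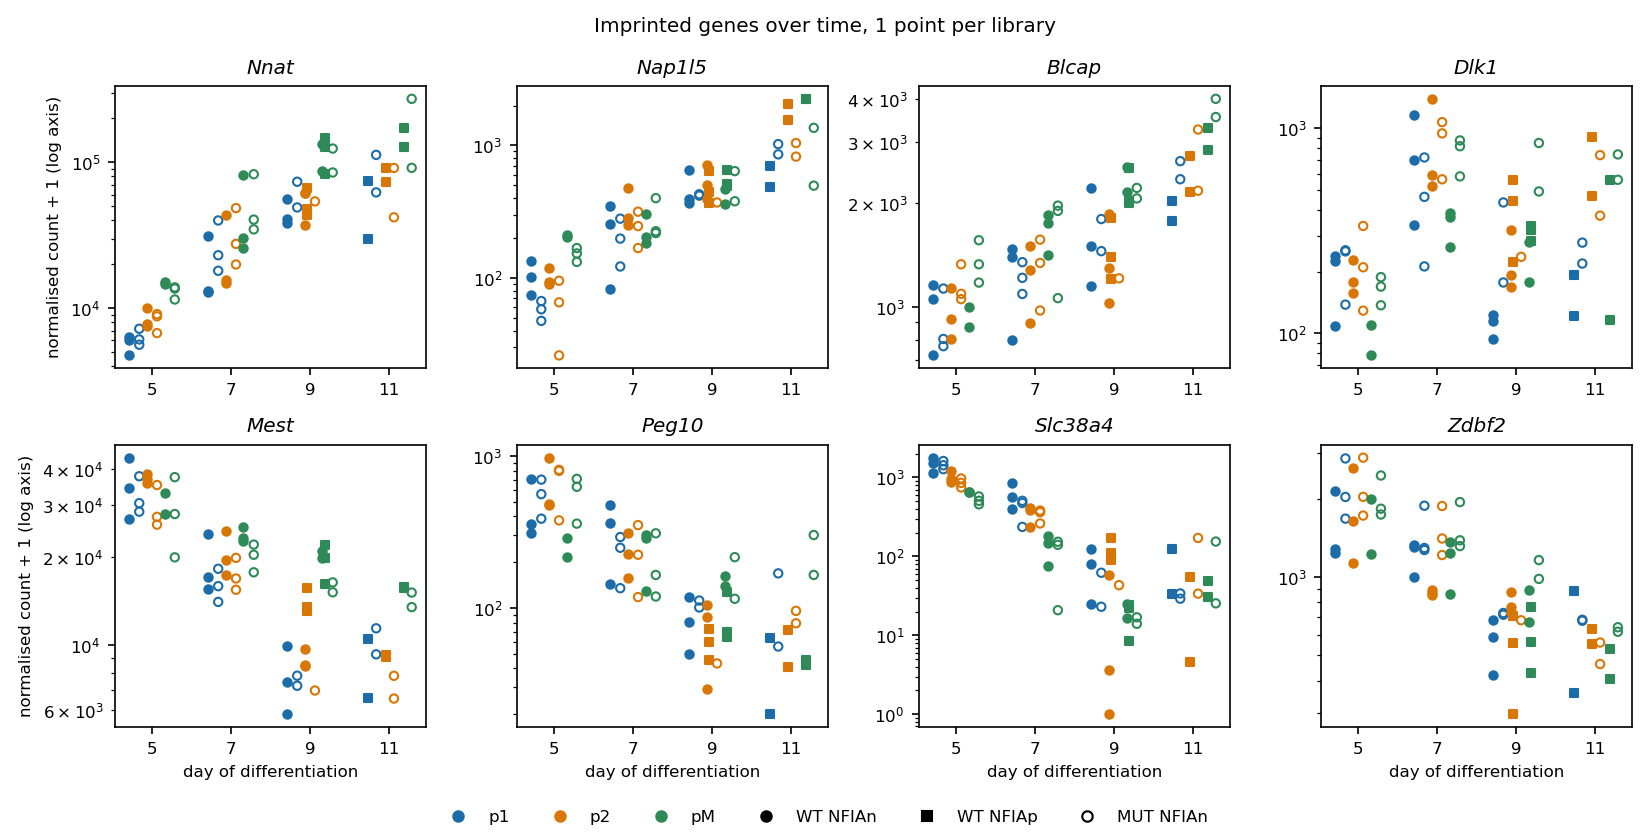
Normalised count + 1 (log y axis) by day (x axis) for 8 members, with 1 point per library. Colours are domains, filled circles WT NFIAn, filled squares WT NFIAp and open circles MUT. Nnat, Nap1l5 and Blcap climb, Dlk1 is highest at D7, and Mest, Peg10, Slc38a4 and Zdbf2 descend.

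Slc38a4 (chr15:96994820-97055956), an amino acid transporter, showed the largest fall. Its lowest, median and highest normalised counts were 645, 1044 and 1777 in WT D5, 75.3, 387 and 845 in WT D7, and 0, 24 and 122 in WT NFIAn D9. In the 6 WT D11 libraries they were 3.57, 39.8 and 123. D5 libraries were above all D9 and D11 libraries. The change was -4.86 ± 0.56 in WT (adjusted p = 6e-10) and -4.01 ± 0.54 in MUT (adjusted p = 3.2e-08). Among WT NFIAn cells it was -1.75 ± 0.51 between D5 and D7 and -3.88 ± 0.51 between D7 and D9 (adjusted p = 0.01 and 1.5e-07). At D5 the WT p1 libraries (1777, 1141 and 1537) were all above the pM libraries (645 and 655).

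Peg10 (chr6:4747306-4760517), a gene derived from a retrotransposon that is needed for placental development, held 217 to 974 normalised counts in WT D5 (median 414) and 19 to 70.5 in WT D11 (median 42.9). MUT held 358 to 810 at D5 and 54.8 to 301 at D11. In both genotypes the days did not overlap. The change was -3.20 ± 0.35 in WT and -2.19 ± 0.34 in MUT (adjusted p = 1e-10 and 4.3e-07). Sgce, the sarcoglycan gene that shares its promoter region with Peg10, held 4228 to 9946 normalised counts over all 66 libraries and was not called from D5 to D11 in either genotype (-0.04 in WT and 0.27 in MUT). Its step from D7 to D9 in WT was called (0.35, adjusted p = 0.04) and lost the call without any of 12 of 17 libraries, with adjusted p up to 0.11 (WT D9 pM NFIAn replicate 1 left out). Of the other genes of the locus, Asb4 was called in MUT (2.84 ± 0.63, adjusted p = 0.00019), from 0 to 53 normalised counts at D5 to 28.9 to 160 at D11. Ppp1r9a, which encodes neurabin, was not called.

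Mest (chr6:30723547-30748465), a member of the hydrolase fold family expressed in mesoderm and many embryonic tissues, fell in 2 steps. WT libraries held 26887 to 43615 normalised counts at D5, 15580 to 25234 at D7, and 5794 to 20986 in NFIAn cells at D9. The D5 libraries did not overlap with those of D7. The change was -0.71 ± 0.14 from D5 to D7, -0.90 ± 0.14 from D7 to D9, and -1.67 ± 0.15 from D5 to D11 (adjusted p = 7.5e-13), and in MUT -1.54 ± 0.15 from D5 to D11. By domain the WT p1, p2 and pM libraries changed by -2.04, -2.01 and -0.95 to D11. Copg2, a coatomer gene on the opposite strand, was not called. The 2 genes share 912 exon bases, which is 23.1% of Mest and 17.8% of Copg2, and counting by strand is not given in the sources used here.

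Zdbf2, a zinc finger gene on chromosome 1, changed by -1.56 ± 0.20 in WT and -1.80 ± 0.19 in MUT (adjusted p = 7.6e-09 and 1e-10). Its WT libraries held 1129 to 2623 normalised counts at D5 and 356 to 882 at D11, with no overlap. Plagl1, a zinc finger transcription factor that restrains proliferation, changed by -0.79 ± 0.18 in WT and -0.89 ± 0.17 in MUT. Impact, a regulator of translation, fell from D5 to D7 in WT (-0.75 ± 0.27, adjusted p = 0.043). That call ended without any of 14 of the 17 libraries (adjusted p up to 0.14, without WT D5 pM replicate 3).

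In the Peg3 locus, Usp29, a gene related to ubiquitin proteases, rose by 1.04 ± 0.34 in WT and 1.40 ± 0.33 in MUT (adjusted p = 0.0093 and 0.00039). The WT value was 0.84 without WT D11 p1 replicate 2 (adjusted p = 0.054). Usp29 shares 14.3% of its exon bases with Zim3 on the opposite strand. Peg3 itself was not called from D5 to D11, and from D7 to D9 in WT it changed by -1.60 ± 0.39 (adjusted p = 0.0037). Airn, Ascl2, Copg2, Dio3, Gnas, Igf2r, Peg12 and Ppp1r9a were called in no comparison by limma over all 66 libraries without a replicate term. Gnas was called from D5 to D7 without the 18 libraries of high total (-0.54, adjusted p = 0.036).

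The Snrpn-Ube3a locus, whose loss underlies the Prader-Willi and Angelman syndromes in humans, moved in both directions. Snrpn, which encodes a spliceosomal protein, rose by 0.81 ± 0.16 in WT and 1.00 ± 0.16 in MUT. Ndn, a growth-suppressing MAGE family gene of postmitotic neurons, rose by 0.39 ± 0.13 and 0.51 ± 0.12, and Mkrn3 by 0.67 ± 0.20 and 0.90 ± 0.20. Ube3a, the ubiquitin ligase gene, changed by -0.92 ± 0.22 and -0.69 ± 0.21, the latter not called without MUT D11 p1 replicate 2 (-0.51, adjusted p = 0.059). Magel2 fell in WT (-2.0 ± 0.48, adjusted p = 0.00057) and gave -0.43 in MUT, which did not pass, and the difference between genotypes did not pass (1.57 ± 0.67, adjusted p = 0.45). Ube3a shares 8.74% of its exon bases with Snhg14 on the opposite strand and carries the same limit as Mest. Snrpn shares 10% with Snurf on the same strand, an overlap that counting by strand would not resolve.

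Several marker lists moved over the same interval. All 8 neuron markers rose in both genotypes, and their sum went from 1833-13087 normalised counts in WT D5 to 19031-37827 in WT D11. Of 11 mesenchyme markers, 5 rose and 4 fell in WT, with sums of 828 to 1845 at D5 and 1177 to 6049 at D11, and no listed neuron or mesenchyme marker was at 0 in all libraries of any genotype and day. Neural crest and Schwann cell markers rose for 4 of 5, with sums of 17.6 to 81.8 at D5 and 388 to 3214 at D11. Astroglial markers summed to 1162 to 1525 in WT D5 and 63576 to 186008 in WT D11. Their part in the changes above was not tested, and in bulk samples fewer cells of a type and less RNA per cell cannot be told apart.

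Dlk1, Meg3 and Rian of the Dlk1-Dio3 locus on chromosome 12 and H19 on chromosome 7 rose to D7 and fell to D9 in WT. Mesenchyme markers also changed in these steps. Of 11, 4 rose and 2 fell from D5 to D7, with a median of -0.04 over the list. Lum rose by 3.26 and Dcn by 3.21, while Meox1 changed by -2.93 and Tbx18 by -1.95. From D7 to D9 none rose and 6 fell (Lum changed by -3.88 and Col3a1 by -2.17, with a median of -2.1 over the list). The summed level of the list was 828 to 1845 normalised counts in WT D5 (median 1215) and 58.4 to 4040 in WT D7 (median 829). All 8 neuron markers rose from D5 to D7. The part of these cells in the member changes was not tested. Dlk1 (chr12:109452823-109463336) encodes a transmembrane protein related to the Notch ligands. Its lowest, median and highest were 77, 167 and 237 normalised counts in WT D5, 263, 525 and 1392 in WT D7, 93, 172 and 318 in WT NFIAn D9, and 115, 330 and 909 in WT D11. D7 libraries were all above the D5 libraries. Dlk1 rose by 1.91 ± 0.29 from D5 to D7 (adjusted p = 1.6e-06) and changed by -1.65 ± 0.29 from D7 to D9 (adjusted p = 4.2e-05). From D5 to D11 it was 1.01 ± 0.32 higher (adjusted p = 0.0072), or 0.64 without WT D11 pM replicate 3 (adjusted p = 0.10).

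Of the maternally expressed noncoding RNAs of the locus, Meg3 and Rian were called in both steps and Mirg in the first. Meg3 (chr12:109541001-109571726) held 105 to 399 normalised counts in WT D5 (median 182), 229 to 456 in WT D7 (median 364) and 80.8 to 416 in WT NFIAn D9 (median 181). The 3 days overlapped. Meg3 rose by 0.87 ± 0.24 and then changed by -0.96 ± 0.24 (adjusted p = 0.0074 and 0.0043). Its rise from D5 to D11 in WT (0.72, adjusted p = 0.023) ended without any of 5 of 14 libraries, with adjusted p up to 0.096 (WT D5 pM replicate 3 left out). Rian (chr12:109603940-109661716), which hosts small nucleolar RNAs, rose by 0.87 ± 0.31 (adjusted p = 0.042, ended by 10 of 17 libraries left out, up to 0.13 without WT D7 p2 replicate 3) and then changed by -1.54 ± 0.31 (adjusted p = 0.00039). Mirg, a host of microRNAs, rose by 1.01 ± 0.27 to D7 (adjusted p = 0.0048) and was at -0.25 from D7 to D9, which did not pass. Rtl1 and Dio3 were low, with medians of 9.21 and 2.12 normalised counts over all libraries, and were not called in either step. Rtl1, a gene derived from a retrotransposon, was lower at D11 than at D5 in MUT (-2.24 ± 0.68, adjusted p = 0.0055).

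Of all members tested, 10 rose and 6 fell from D5 to D7 in WT, which is 39% called, against 19.6% of all genes (10% higher and 9.51% lower). From D7 to D9 among NFIAn cells 6 rose and 11 fell, which is 41.5% called, against 14.4% of all genes (6.3% higher and 8.09% lower). Between D9 and D11 among NFIAp cells of p2 and pM, 4 members were called (9.76%), against 10.1% of all genes (6.16% higher and 3.98% lower). Nap1l5, Inpp5f and Blcap rose and Plagl1 fell. The last 3 each lost the call without at least 5 of the 10 libraries, with adjusted p up to 0.22, 0.18 and 0.16. Without the 18 libraries of high total, 10 members were called from D5 to D7, and the calls of Rian (0.57, adjusted p = 0.29), Mirg (0.63, 0.11) and Nap1l5 (0.71, 0.064) were among those that ended. From D7 to D9 that of Meg3 ended (-0.68, adjusted p = 0.18), and from D9 to D11 Inpp5f, Blcap and Plagl1 gave adjusted p of 0.52, 0.39 and 0.26. TMM scaling and edgeR also ended the D9 to D11 calls of Blcap (adjusted p = 0.057 and 0.06) and Plagl1 (0.051 and 0.053). The steps from D5 to D7 and from D7 to D9 share the D7 libraries, so opposite signs in the 2 steps are not independent.

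**Figure D3:**
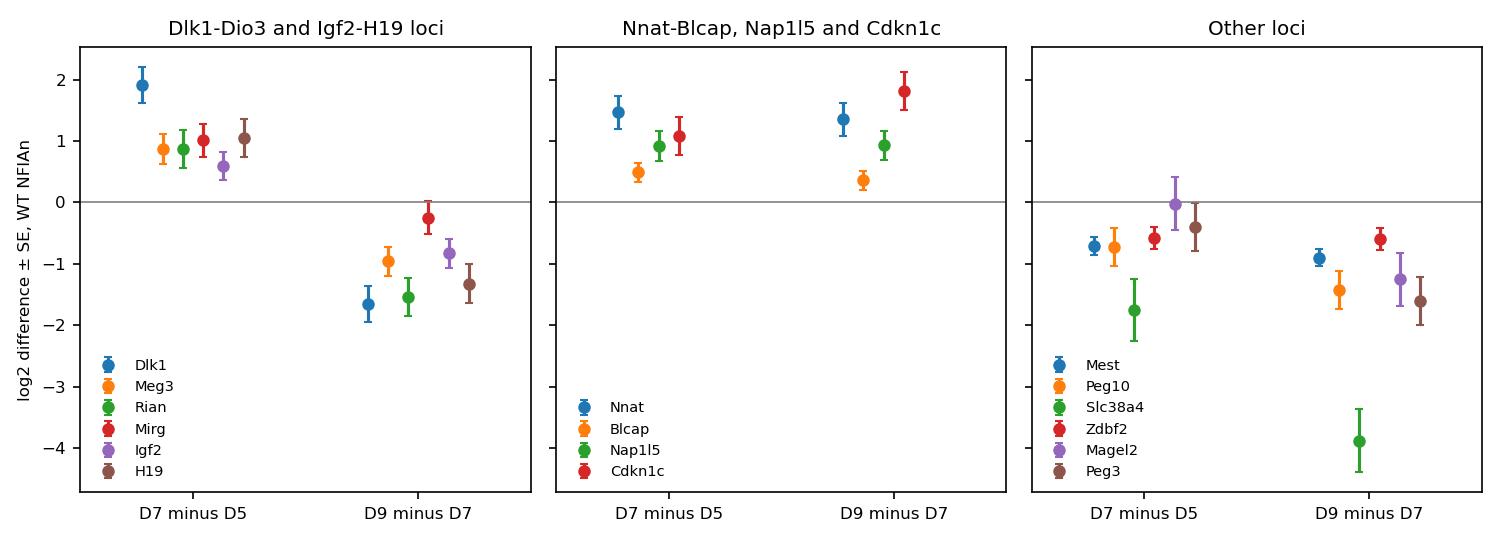
Log2 difference ± SE (y axis) of the 2 steps D5 to D7 and D7 to D9 among WT NFIAn cells (x axis) for members of the loci named above each panel. Points of Dlk1, Meg3, Rian, Mirg, Igf2 and H19 lie above 0 in the first step and below 0 in the second, while Nnat, Blcap, Nap1l5 and Cdkn1c lie above 0 in both.

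Igf2 (chr7:142650766-142666816), the fetal growth factor, held 761 to 1835 normalised counts in WT D5, 804 to 5252 in WT D7 and 283 to 2275 in WT NFIAn D9. In p1 at D9 the values were 426, 337 and 283, below every other library of the study. Igf2 was 0.59 ± 0.23 higher at D7 than at D5, which did not pass (adjusted p = 0.06, or 0.014 with edgeR), and changed by -0.83 ± 0.23 from D7 to D9 (adjusted p = 0.0097), with -2.62 in p1, -0.23 in p2 and 0.35 in pM. The 2 highest D7 libraries, p1 replicate 3 (5252) and p2 replicate 3 (5159), were among the 18 of high total, and without those 18 the change was -0.43 (adjusted p = 0.29).

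H19 (chr7:142575529-142578143), the noncoding RNA downstream of Igf2, ran from 64.9 to 424 normalised counts in WT D5 (median 174), 64.5 to 1214 in WT D7 (median 332), 32.4 to 317 in WT NFIAn D9 (median 142) and 396 to 844 in WT D11 (median 682). H19 rose by 1.05 ± 0.31 to D7, changed by -1.32 ± 0.31 to D9, and was 2.01 ± 0.34 above D5 at D11 (adjusted p = 0.012, 0.0021 and 3.3e-06). The first of these was 0.94 without WT D5 pM replicate 3 (adjusted p = 0.054). From D5 to D11 the values of Igf2 and H19 were 1.44 and 2.60 in p2, 1.58 and 3.06 in pM, and -0.49 and 0.36 in p1, with no test within a domain. At D9 the NFIAp cells of p2 and pM held 215 to 1300 normalised counts of H19 against 87.6 to 317 in NFIAn cells, without overlap within either domain, which gives 1.49 ± 0.38 and does not pass the test (adjusted p = 0.086).

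That comparison of gates called no member with limma. Of all genes tested 0.204% were called (0.146% higher and 0.0573% lower in NFIAp cells), and 7 members had an unadjusted p below 0.05. The differences of the 41 members ranged from -1.27 to 2.00. Igf2r and Slc38a4 were 1.15 ± 0.40 and 2.00 ± 0.63 (adjusted p = 0.31 and 0.21). edgeR on the recovered reads also called no member there. Fits with a replicate term did: H19 was called with replicate number as a term (adjusted p = 0.048), and H19, Igf2r, Slc38a4 and Zdbf2 with libraries of equal number treated as correlated (adjusted p = 0.0059, 0.018, 0.021 and 0.025). In the same comparison the 11 mesenchyme markers had a median difference of 2.26, and Prrx1 was called (3.52). In p2 at D9, the mean normalised count of Lum was 374 above the gate and 1.13 below it, and that of Col3a1 was 1169 above and 122 below. No neuron marker was called between gates, and the part of mesenchyme cells in the member differences was not tested.

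The p1 and p2 domains differed for 5 members (12.2%) over the 4 days in WT, 3 higher and 2 lower in p2. Of all genes 1.83% differed (1.28% higher and 0.554% lower). In the same comparison 4 of 8 neuron markers were higher in p2 (Stmn2 by 1.12, Dcx by 1.11, Snap25 by 1 and Tubb3 by 0.67), and their part was not tested. Igf2 was higher in p2 by 1.17 ± 0.20 (adjusted p = 0.00019), with no overlap on 2 of 4 days. Meg3 (0.81 ± 0.21), Magel2 (1.43 ± 0.38) and Slc38a4 (-1.69 ± 0.45) were called with adjusted p of 0.029, 0.034 and 0.031, and lost the call without 7, 11 and 8 of 22 libraries, with adjusted p up to 0.096, 0.15 and 0.21. Without the 18 libraries of high total their adjusted p was 0.092, 0.15 and 0.32, and edgeR gave Magel2 0.089 and Slc38a4 0.14. Between pM and p2, 4 members (9.76%) were called, 2 higher and 2 lower in pM, against 2.46% of all genes (0.687% higher and 1.77% lower). Of the neuron markers Dcx was lower (-1.35) and Elavl4 higher (0.75) in pM. Igf2 was lower in pM by a log2 difference of -0.85 ± 0.21 (adjusted p = 0.016), with no overlap among NFIAn cells of D5, D7 and D9 or NFIAp cells of D11. The adjusted p was 0.055 without WT D11 p2 replicate 2 or WT D11 pM replicate 2. Mest was 0.48 ± 0.13 higher in pM (adjusted p = 0.025), and the call ended without any of 7 of 20 libraries, with adjusted p up to 0.088 (WT D5 pM replicate 2 left out). Zim1, a zinc finger gene, averaged 9.82 normalised counts in p2 and 0.316 in pM (-1.95 ± 0.55, adjusted p = 0.041), and lost the call without any of 14 of 20 libraries, up to 0.15 (WT D11 p2 replicate 2 left out), or 0.13 with edgeR. Without the 18 libraries of high total, Igf2, Mest and Zim1 gave adjusted p of 0.16, 0.088 and 0.15.

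Cdkn1c (chr7:143458339-143461050) encodes p57, an inhibitor of cyclin-dependent kinases that takes cells out of the cell cycle. At D5 the WT p1 libraries held 165, 933 and 695 normalised counts, the p2 libraries 335, 422 and 322, and the pM libraries 1459 and 1376. At D9 the NFIAn libraries held 24180, 23881 and 35739 in p1, 4113, 2326 and 2724 in p2, and 1490 and 1005 in pM. At D11 the p1 libraries held 10344 and 45435, the p2 libraries 3538 and 8296, and the pM libraries 1794 and 1738. The pM libraries were the highest at D5 and the lowest at D9, when p1 was highest and no domains overlapped.

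The rise of Cdkn1c from D5 to D11 in WT averaged 3.25 ± 0.35 on the log2 scale (adjusted p = 7.8e-11), and it came to 5.51 for p1, 3.92 for p2 and 0.32 for pM. The test of a difference among domains passed (limma F = 18.47, adjusted p = 5e-04), and Cdkn1c was the only member called by it, against 0.891% of all genes. Without the 18 libraries of high total Igf2 and H19 were called as well (adjusted p = 0.014 and 0.0065). None of the 18 is a D5 or D11 library, so only the estimated spread and the adjustment changed in that test. In MUT the rise was 6.07, 5.14 and 1.05, on average 4.09 ± 0.34 (adjusted p = 3.2e-14). Over the 4 days p2 was below p1 in WT by a log2 difference of -1.66 ± 0.28 (adjusted p = 0.00011), from -0.41 at D5 to -3.21 at D9, or -1.44 (adjusted p = 0.061) once the 18 libraries of high total were left out. Phlda2, its neighbour and a restrainer of placental growth, never exceeded 42.1 normalised counts. It fell from 9.96-42.1 in WT D5 to 0-18.4 in WT D7 (-2.25 ± 0.59, adjusted p = 0.0046, or 0.071 with edgeR). Its change from D5 to D11 in WT (-1.54, adjusted p = 0.046) ended without any of 12 of 14 libraries, with adjusted p up to 0.11 (WT D11 pM replicate 2 left out), and gave 0.14 with edgeR. Kcnq1ot1, the paternally expressed RNA that silences the cluster, was called over time in MUT alone (-0.80 ± 0.33, adjusted p = 0.043, up to 0.14 without MUT D11 p2 replicate 3). Ascl2 was at 0 in 53 of 66 libraries.

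Between genotypes, Cdkn1c, H13 and Plagl1 were each called on 3 of 4 days. At D5, 4 of 41 members (9.76%) were called, 2 higher and 2 lower in MUT, against 0.458% of all genes (0.172% higher and 0.286% lower). At D7 it was 5 or 12.2% (2 higher and 3 lower) against 2.03% (0.776% and 1.25%). At D9 it was 1 or 2.44%, which was lower, against 0.7% (0.356% higher and 0.344% lower). At D11 it was 6 or 14.6% (4 higher and 2 lower) against 4.14% (1.8% and 2.34%). These calls depended on how replicate numbers entered the fit. With libraries of 1 genotype, day and number treated as correlated, only Cdkn1c at D5 and D7 and H13 at D9 remained called (adjusted p = 0.0027, 0.019 and 0.04), and Plagl1, Meg3 and Rian were called on no day. With a separate replicate term for each day, chosen after seeing the data, 11, 12, 3 and 14 members were called at D5, D7, D9 and D11. The lower genes were Cdkn1c, H13, Phlda2 and H19, all expressed from the maternal allele. The higher ones were Meg3 and Rian, also maternal, and Plagl1, Peg10 and Magel2, which are paternal. The WT and MUT libraries of D5, D7 and D9 form 9 pairs matched for day, domain and gate. Cdkn1c and H13 were lower in MUT without overlap in 7 of these 9, and Meg3 and Rian were higher in 6 of 9. Over all genes tested, 0.668% were lower and 0.401% higher in at least 6 of the 9.

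**Figure D4:**
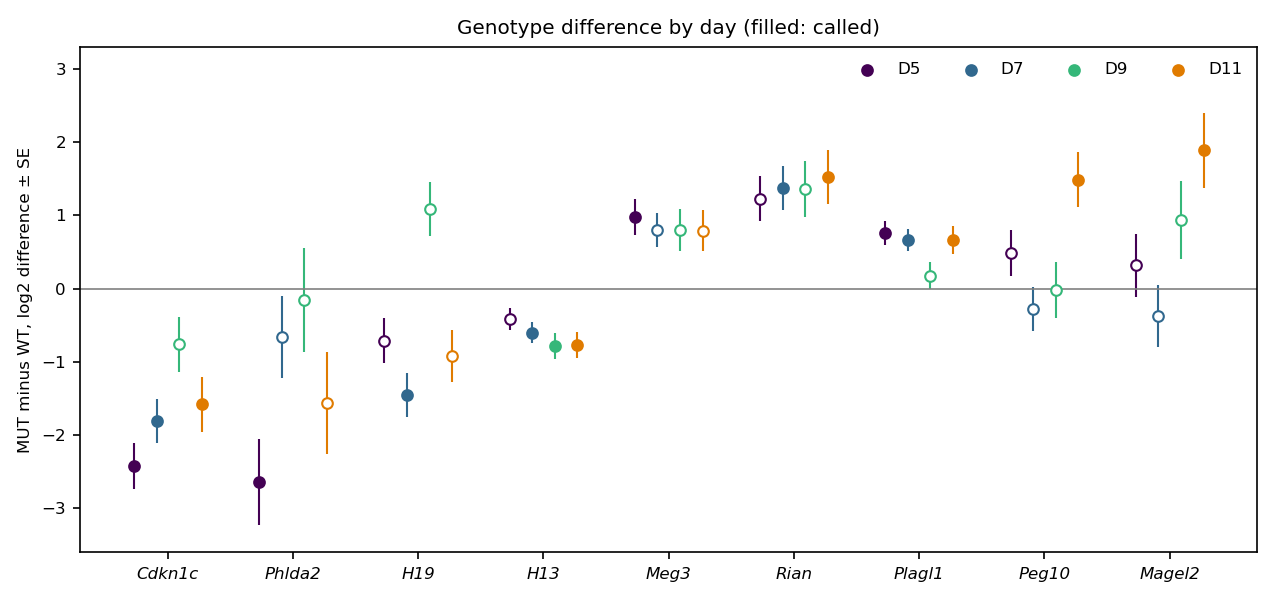
MUT minus WT on the log2 scale (y axis, ± SE of the fit) at D5, D7, D9 and D11 (colours) for the 9 members called on at least 1 day (x axis); filled points passed the test. Cdkn1c and H13 lie below 0 and Meg3, Rian and Plagl1 above 0 on all 4 days.

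Cdkn1c was lower in MUT at D5 and D7. At D5 the MUT libraries held 81.5, 68.7 and 199 normalised counts in p1, 71.1, 165 and 172 in p2, and 67.8, 81.1 and 290 in pM, against the WT values above. MUT and WT overlapped in p1 and did not in p2 and pM. The difference was -2.42 ± 0.31 (adjusted p = 3e-06), with -2.18, -1.49 and -3.59 in p1, p2 and pM. At D7 the MUT libraries held 1186, 596 and 699 in p1, 304, 287 and 283 in p2, and 283, 167 and 251 in pM. The WT libraries held 1672, 4137 and 2653 in p1, 1181, 1925 and 938 in p2, and 701, 502 and 842 in pM. No domain overlapped, and the difference was -1.81 ± 0.30 (adjusted p = 0.00021).

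At D9 the MUT p1 libraries held 10892 and 7467 normalised counts of Cdkn1c and the pM libraries 546 and 461, below the WT libraries, while the only p2 library (4534) was above the WT NFIAn ones. The difference was -0.76 ± 0.38 and did not pass (adjusted p = 0.55). At D11 the MUT libraries held 10579 and 4714 in p1, 3300 and 6144 in p2, and 233 and 255 in pM. The pM libraries lay below those of WT, and p1 and p2 overlapped. The difference was -1.58 ± 0.37 (adjusted p = 0.0063), and -1.22 without WT D11 p1 replicate 3 (adjusted p = 0.052). The difference in the change from D5 to D11 between genotypes did not pass (0.84 ± 0.49, adjusted p = 0.68).

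H13 (chr2:152669461-152708670) encodes signal peptide peptidase, a protease of the endoplasmic reticulum. Its MUT libraries held 991 to 1525 normalised counts at D5 (median 1226), 958 to 1722 at D7 (median 1285), 1258 to 2213 at D9 (median 1455) and 1243 to 2428 at D11 (median 1496). The WT libraries held 1225 to 1901 at D5 (median 1715), 1367 to 3698 at D7 (median 1803), 1967 to 3052 in NFIAn cells at D9 (median 2574) and 2134 to 3676 at D11 (median 2573). The WT level rose over time (0.73 ± 0.17, adjusted p = 0.00025), and within each domain MUT and WT did not overlap at D9 or D11. MUT minus WT was -0.41 ± 0.15 at D5, which did not pass, then -0.60 ± 0.14, -0.78 ± 0.18 and -0.77 ± 0.18 (adjusted p = 0.015, 0.019 and 0.0046). At D9 the call ended without MUT D9 p1 replicate 1, MUT D9 p2 replicate 3, MUT D9 pM replicate 1 or WT D9 pM NFIAn replicate 3 (adjusted p up to 0.11). Without the 18 libraries of high total, H13 was -0.48 at D7 (adjusted p = 0.083) and -0.77 at D11 (5e-04). At D9 no MUT p2 library and single libraries of other groups were left. The value there, -0.89, is a mean over p1 and pM alone and cannot be set against -0.78. None of the 18 is a D11 library, so at D11 only the estimated spread and the adjustment changed.

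Rian was higher in MUT at D7 and D11 and Meg3 at D5, and the fitted differences of both were above 0 on all 4 days. Rian libraries of MUT held 101 to 383 normalised counts at D5, 306 to 696 at D7, 139 to 261 at D9 and 138 to 871 at D11. Those of WT NFIAn held 66.5 to 319, 127 to 406 and 29.4 to 126 at D5, D7 and D9, and those of WT D11 17.2 to 186. At D9 every MUT library was above every WT library. MUT minus WT for Rian was 1.23 ± 0.31, 1.37 ± 0.30, 1.36 ± 0.38 and 1.52 ± 0.37 from D5 to D11, called at D7 and D11 (adjusted p = 0.0064 and 0.0083). At D5 it was called with TMM scaling and with edgeR (adjusted p = 0.046 and 0.045). The D11 call ended without MUT D11 p1 replicate 3, MUT D11 pM replicate 3 or WT D11 p1 replicate 3 (adjusted p 0.075, 0.056 and 0.072).

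Meg3 differed by 0.98 ± 0.24, 0.80 ± 0.23, 0.80 ± 0.29 and 0.79 ± 0.28, called at D5 alone (adjusted p = 0.044, or 0.065 with edgeR). That call ended without any of 14 of the 17 libraries, with adjusted p up to 0.30 (WT D5 pM replicate 3 left out). Mirg, from the same strand, differed by 0.71, 0.76, 0.38 and 0.79 and was not called. Of the paternally expressed genes of the locus, Dlk1 differed by 0.39, 0.21, 1.00 and 0.57 and was not called on any day.

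Plagl1 (chr10:13060504-13131694) was higher in MUT by 0.76 ± 0.16 at D5, 0.67 ± 0.15 at D7 and 0.66 ± 0.19 at D11 (adjusted p = 0.011, 0.0088 and 0.031), and by 0.18 ± 0.19 at D9, which did not pass. At D5 the MUT libraries held 856 to 1311 normalised counts and the WT libraries 436 to 1029, and no domain overlapped. At D7 they held 667 to 1320 and 466 to 1228, overlapping in p1 and not in p2 or pM. The D5 value was 0.68 without WT D5 pM replicate 3 (adjusted p = 0.11). The D11 call ended without any of 6 of 12 libraries, with adjusted p up to 0.19 (MUT D11 p1 replicate 3 left out).

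H19 was lower in MUT at D7 by a log2 difference of -1.45 ± 0.30 (adjusted p = 0.0032). MUT libraries held 151, 116 and 38.3 normalised counts in p1 against 321, 558 and 1214 in WT. In p2 they held 242, 151 and 281 against 332, 408 and 719, and in pM 105, 56.8 and 92 against 162, 154 and 64.5. The genotypes overlapped in pM and not in p1 or p2. The difference was -0.71 ± 0.31 at D5, 1.09 ± 0.37 at D9 and -0.92 ± 0.36 at D11, and none of these passed. The D11 value passed without the 18 libraries of high total (adjusted p = 0.012). None of the 18 is a D11 library, so only the estimated spread and the adjustment changed there. Igf2, from the same locus, differed by 0.15, 0.09, 0.57 and 0.12 on the 4 days and was not called.

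**Figure D5:**
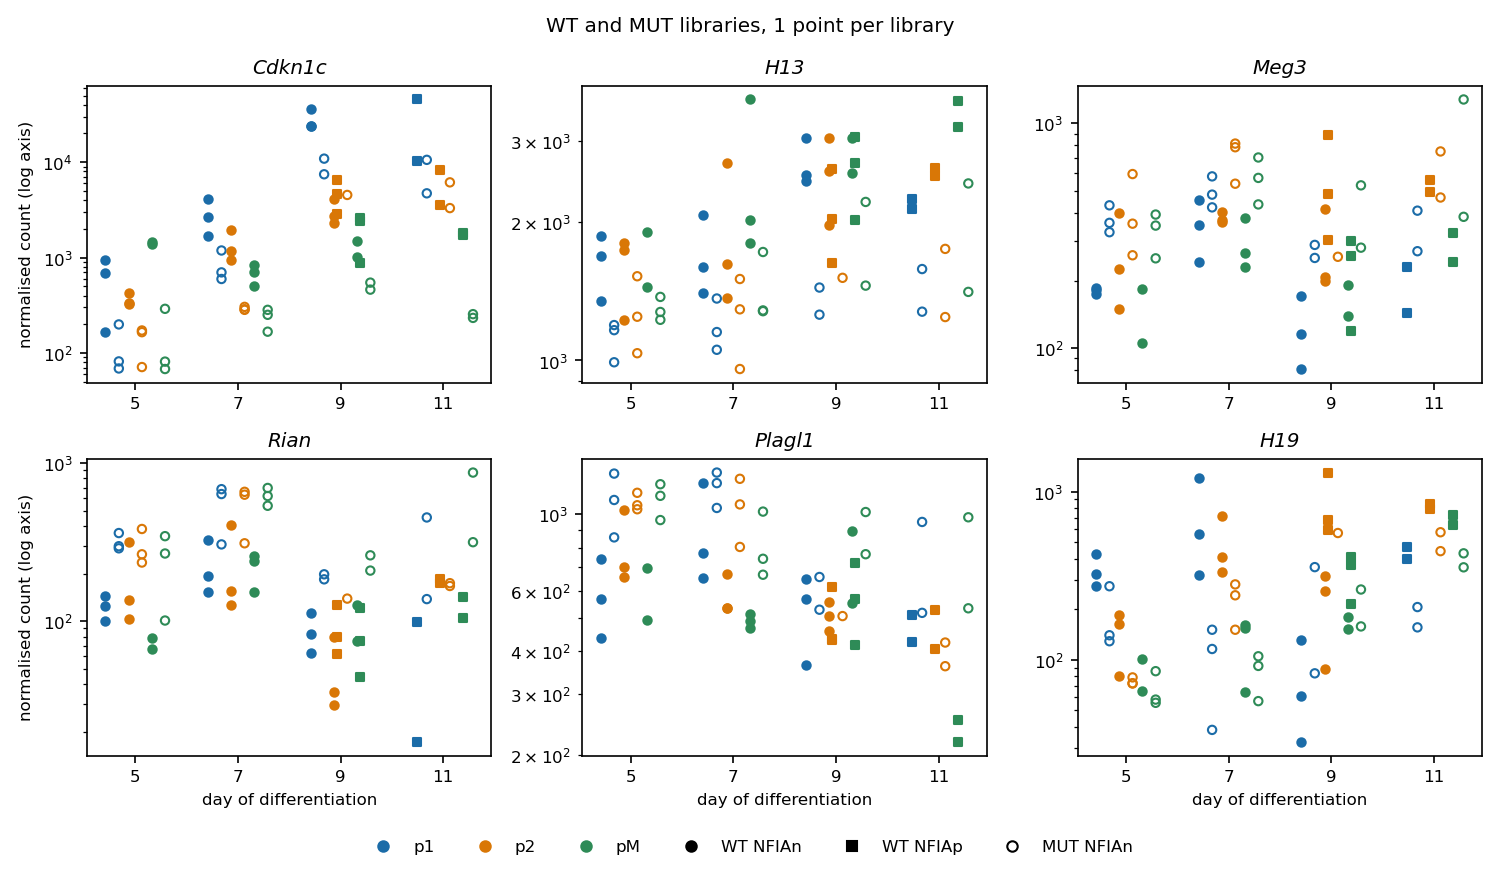
Normalised counts (log y axis) by day (x axis) of 6 members that differed between genotypes, with 1 point per library, colours for domains, filled symbols for WT (squares NFIAp) and open circles for MUT. Open circles of Cdkn1c and H13 lie below filled symbols of the same colour on most days, and those of Meg3 and Rian above.

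The remaining genotype calls were those of the weakly expressed Phlda2 at D5 and of Peg10 and Magel2 at D11. Phlda2 held 9.96 to 42.1 normalised counts in WT D5 and 0 to 13.4 in MUT D5, with no overlap within a domain. The difference was -2.64 ± 0.59 (adjusted p = 0.019, or 0.18 with edgeR on the recovered reads). It was not called with either MUT D5 p2 replicate 2, MUT D5 pM replicate 2, WT D5 pM replicate 2 or WT D5 pM replicate 3 left out (adjusted p up to 0.082). At D11, Peg10 was 1.49 ± 0.37 and Magel2 1.89 ± 0.51 higher in MUT (adjusted p = 0.01 and 0.021). Peg10 held 54.8 to 301 normalised counts against 19 to 70.5, and the genotypes overlapped in p1 and not in p2 or pM. Magel2 held 38.9 to 244 against 2.71 to 88.7, with overlap in pM and not in p1 or p2. The Peg10 call ended without MUT D11 p1 replicate 3 (1.23, adjusted p = 0.081) or WT D11 p1 replicate 3 (1.21, 0.058), and that of Magel2 without any of 6 of 12 libraries (up to 0.23, WT D11 pM replicate 2 left out).

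No member's change from D5 to D11 differed between genotypes by limma (0 called, against 0.77% of all genes, 0.293% higher and 0.477% lower, and 4 members with an unadjusted p below 0.05). Differences ranged from -1.14 to 1.97. In the D11 comparison the WT cells were also NFIAp, and all 5 astroglial markers tested were lower in MUT. Those markers summed to 18438 to 77419 in MUT D11 and 63576 to 186008 in WT D11, and their part in the D11 differences was not tested. At D5 and D7 no neuron, mesenchyme or astroglial marker was called between genotypes. The median differences of these 3 lists were -0.31, 0.05 and 0.02 at D5 and -0.07, -0.5 and 0.35 at D7. At D9 the mesenchyme marker Meox1 (3.02) and the astroglial marker Aldoc (1.24) were called higher in MUT. The part of such cells in the member differences of D5, D7 and D9 was not tested.

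Some abundant members were not called between genotypes. Nnat differed by -0.04, 0.43, 0.13 and 0.17 from D5 to D11, Snrpn by -0.05, 0.13, 0.13 and 0.14, Ndn by -0.04, 0.05, 0.03 and 0.08, and Mest by -0.19, -0.23, -0.24 and -0.06. Peg3, a zinc finger gene, differed by 1.21, 0.76, 0.74 and 1.42 and was not called by limma over all 66 libraries on any day. Peg3 was called by edgeR at D11 (1.53, adjusted p = 0.041). It was also called without the 18 libraries of high total at D5 (1.21, adjusted p = 0.013) and D11 (1.42, 0.0027). None of those 18 is a D5 or D11 library, so the differences stayed the same and only the estimated spread and the adjustment changed. Gnas, which encodes the stimulatory G protein subunit, differed by at most 0.45 in size. Igf2r and its antisense RNA Airn differed by -0.43 to 0.46.

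Other lists of genes that are not members were counted as well. Of 31 other genes reported as imprinted, 23 were tested, of which 7 rose and 6 fell from D5 to D11 in WT, 0 were called between genotypes at D5, D7 or D9, and 1 (Gab1, -0.67) at D11. Of 12 genes that host or flank members, 11 were tested, 2 rose and 2 fell over time in WT, and none was called between genotypes by limma on any day. Of 22 genes that maintain or read imprints, 20 were tested, and 3 rose and 9 fell in WT, as did the same numbers in MUT. Among them the maintenance methyltransferase gene Dnmt1 changed by -2.10 in WT and -1.33 in MUT, its partner Uhrf1 by -2.34 and -1.56, and the de novo methyltransferase gene Dnmt3b by -3.34 and -2.96, while Zfp57 rose by 1.02 and 1.56. Uhrf1 was the only gene of that list called between genotypes, at D11 (0.66) and in the difference of the change from D5 to D11 (0.79).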

How the data were processed

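RNA of sorted cells was sequenced in 66 libraries, 37 WT and 29 MUT, in 26 groups of genotype, day, domain and gate read from the sample labels. The deposited values are normalised signal per gene, namely read counts that the authors divided by size factors. The submitters' processing notes name DESeq2 and the build mm10, and give no aligner or annotation (not given in the sources used here). Whole reads were recovered from the steps of these values for 100% of entries within 0.01. Each library's recovered reads give its depth, which sets the counting error of low genes. Replicates were treated as separate libraries, since the lowest chi-square per degree of freedom over 55 replicate pairs was 26.75.

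The 15714 genes that reached 10 in 2 or more libraries entered limma (3.58.1, trend) on log2(value + 1), with a mean for each of the 26 groups and Benjamini-Hochberg adjustment over all of them. Differences are on that scale, which understates the change of low genes. They are means over the matched domains and gates, ± the standard error of the fit, and a gene was called at an adjusted p below 0.05. Every adjusted p printed is limma's unless edgeR (4.0.16) is named. In simulated counts of MUT against WT at D5 over 15378 genes, the test found 57% of the 2-fold and 94% of the 4-fold changes, and 7.36% of its calls were false. Those libraries were drawn independently, and only genes above a minimum mean level were changed. The rates therefore do not cover low members, or libraries that vary together as same-numbered ones did here (correlation 0.375). R 4.3.3, Python 3.11.15, pandas 2.3.3 and matplotlib 3.10.9 were used. Gene coordinates are GENCODE M21 (GRCm38) and promoter windows RefSeq GRCm38.p6.

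Every member was accounted for. Full descriptions went to called members whose log2 difference was 1 or more in size and whose higher group averaged 50 or more, up to 8 per comparison, and other called members by their difference. The members and all gene lists were chosen with earlier results of these data known, so their patterns are no independent evidence. The alternatives were TMM scaling, a pseudocount of 8, all genes unfiltered, edgeR's quasi-likelihood test on recovered reads, a replicate block fitted in several ways, leaving out the 18 libraries of high total, and leaving out each library in turn.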

Additional observations from a re-analysis of the deposited data

Results flagged for a closer look

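The change of Cdkn1c from D5 to D11 differed among the WT domains (limma F = 18.47, adjusted p = 5e-04, with 2 libraries per domain at D11). It was 5.51, 3.92 and 0.32 on the log2 scale in p1, p2 and pM. The WT D5 cells were NFIAn and the WT D11 cells NFIAp in all 3 domains, so the gate and time cannot be told apart in it.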

How the results depend on the processing

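Of the 109 calls of a member in a comparison, 55 held under every other setting run for that comparison (at most 8). Of these, 52 also held without any single library, and 0 calls reversed. The block within each day was run only for MUT minus WT on each day, between gates and between neighbouring domains. Calls in the other comparisons therefore faced fewer settings. In no comparison did every same-numbered pair of libraries correlate above 0.1, so the replicate block was kept as an alternative. The median correlation of same-numbered libraries was still above 0 in each comparison (0.04 to 0.21), and libraries of high total share their day and number. Pairs of unlike number had medians of -0.21 to -0.03. Deviations from a group mean sum to 0 within the group, so these values are tied to the former and give no separate baseline. Counts that moved by more than 1.5 times follow, as all genes and then members where both moved, and the cause was not tested. A replicate block gave 2621 and 7 from D9 to D11 (1593 and 4 as reported), 111 genes for MUT minus WT at D5 (72), and 64 and 1 between gates (32 and 0). With correlated libraries in place of fixed blocks (correlation 0.375) it gave 1333 and 4 from D5 to D7 (3073 and 16), 872 and 8 from D7 to D9 (2261 and 17) and 842 and 1 from D9 to D11. For MUT minus WT that block gave 11 and 1 at D5, 37 and 1 at D7 (319 and 5 as reported), 28 genes at D9 (110), 107 and 0 at D11 (650 and 6), and 14 genes for the difference in change over time (121). It gave 454 and 4 between gates, 1043 and 12 between p2 and p1 (288 and 5), 971 and 10 between pM and p2 (386 and 4), and 463 and 4 among domains (140 and 1). A block within each day, chosen after seeing the data, gave 798 and 11, 2275 and 12, 784 and 3, and 3180 and 14 for MUT minus WT at D5, D7, D9 and D11, 543 and 4 between gates, 1342 and 12 between p2 and p1, and 992 and 11 between pM and p2. Without the 18 libraries of high total the counts were 10 members from D5 to D7, 701 and 1 from D9 to D11, 143 and 198 genes for MUT minus WT at D5 and D7, 17 and 0 at D9, 1545 genes at D11, 8 genes between gates, 127 and 2 between p2 and p1, 224 and 1 between pM and p2, and 245 and 3 among domains. TMM scaling, which shifted the median of all genes by at most 0.046 in size, and edgeR each called 2 members from D9 to D11, and edgeR 13 genes between gates and 3 members between p2 and p1. With no filter 168 genes were called at D9, and with a pseudocount of 8 the domains differed in 234. Leaving out 1 library gave 961 to 1786 genes and 1 to 5 members from D9 to D11, 33 to 88 and 1 to 5 for MUT minus WT at D5, 210 to 366 genes at D7, 36 to 117 and 0 to 2 at D9, 331 to 744 and 1 to 7 at D11, and 65 to 164 genes for the difference in change over time. It gave 6 to 73 and 0 to 1 between gates, 2 to 8 members between p2 and p1, 231 to 413 and 0 to 4 between pM and p2, and 85 to 163 genes among domains. MUT D9 p2 is a single library, assumed to vary like the others. Leaving out the 18 libraries of high total removes no D5 or D11 library, so counts between those days move only through the estimated spread and the adjustment. Depth limits members under 10 counts.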
